A study of Drosophila melanogaster with 2 samples.

Results

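GATAd is a fly transcription factor of the GATA family, and these data show where it was found at 9 genes of lipid synthesis and storage among 13945 protein-coding genes: Lpin, LPCAT, Acbp1, Acsf2, Acat1, Desat1, FASN1, ACC and bmm. Of the 9 genes, 6 had a GATAd peak in the authors' thresholded list, 1 peak each, with the summit 79 to 673 bp from a transcription start site (TSS) of the gene. The products of these 6 activate, carry, store, remodel or break down fatty acids. The 3 genes that make and desaturate fatty acids, ACC, FASN1 and Desat1, had none. The genes were chosen by the peaks in these same lists together with their known roles, so these counts describe the choice and were not tested. Over all protein-coding genes, 11.6% had a peak of that list in the gene body or within 1 kb, and nothing is read from the members' share beside it.

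The samples were whole wandering larvae of the third instar, males and females pooled, from a Drosophila melanogaster line that stably makes GATAd with green fluorescent protein (GFP) at its C terminus. DNA bound by the fusion was pulled down through its GFP tag from sonicated chromatin and sequenced (ChIP-seq). One label field names GATAd itself as the antibody target. There were 2 samples, both GATAd-GFP and numbered by the labels as biological replicates 2 and 3. No other genotype, treatment, age or stage was compared, so there is no contrast between conditions and no test. All tissues of the larva were combined, and the promoter that drives the fusion is not given in the sources used here, so no peak can be assigned to the fat body or to any other tissue. Peak lists hold no expression values, so the labelled stage could not be checked against markers.

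As background, fat metabolism runs from the making of fatty acids to their storage and use. Acetyl-CoA carboxylase (ACC) and fatty acid synthase (FASN1) build fatty acids, and Desat1 puts a double bond into them. Acyl-CoA synthetases such as Acsf2 activate fatty acids and Acbp1 binds the resulting acyl-CoA. Lpin, a phosphatidate phosphatase, makes the diacylglycerol from which storage fat and phospholipids are built, and LPCAT puts acyl chains back onto lysophosphatidylcholine. Brummer (bmm) is the lipase that releases fat from lipid droplets, and Acat1 is an acetyl-CoA acetyltransferase at the end of fatty acid breakdown and in ketone body metabolism. The larval fat body is the main store of this fat before pupation. GATA factors are known to bind the word GATA, most often with A or T before it and A or G after it. This longer form, here called the extended GATA word, is spelled AGATAA, or AGATAG when it ends in G. With T in front the spelling is TGATAA, and TGATAG when it ends in G.

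The sequence under 4 of the 6 peaks is shown because it is where the factor was found at these genes, and because the peaks differ in whether they hold a GATA word. Each is 201 bases centred on the summit, on the plus strand of the reference genome (RefSeq Release 6, the sequence of build dm6). All 4 genes lie on the minus strand, so the gene lies to the left of its summit at Acsf2, Acbp1 and bmm, and the LPCAT summit lies inside the gene. The last base of the bmm window is the TSS of the divergent gene Tdrd3. Capitals mark the extended GATA word on either strand (TTATCT is AGATAA read on the other strand). The windows are chrX:9579214-9579414 for LPCAT, chr2L:5342443-5342643 for Acsf2, chr2L:8162600-8162800 for Acbp1 and chr3L:14786591-14786791 for bmm.
LPCAT: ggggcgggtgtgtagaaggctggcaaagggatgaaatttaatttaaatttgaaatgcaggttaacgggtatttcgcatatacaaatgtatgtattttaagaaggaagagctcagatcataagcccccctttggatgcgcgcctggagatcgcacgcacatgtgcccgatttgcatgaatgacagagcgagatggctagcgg
Acsf2: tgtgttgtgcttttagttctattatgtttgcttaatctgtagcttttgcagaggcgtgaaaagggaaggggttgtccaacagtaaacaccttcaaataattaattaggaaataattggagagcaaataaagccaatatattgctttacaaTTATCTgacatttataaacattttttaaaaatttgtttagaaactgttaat
Acbp1: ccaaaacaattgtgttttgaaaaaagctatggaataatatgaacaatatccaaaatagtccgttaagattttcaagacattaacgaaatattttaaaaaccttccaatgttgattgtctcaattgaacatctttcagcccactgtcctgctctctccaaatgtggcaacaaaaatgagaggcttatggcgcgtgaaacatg
bmm: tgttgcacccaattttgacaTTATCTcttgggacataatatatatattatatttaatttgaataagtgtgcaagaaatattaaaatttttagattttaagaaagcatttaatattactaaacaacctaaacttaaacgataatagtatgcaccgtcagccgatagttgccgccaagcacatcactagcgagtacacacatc

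The extended GATA word lay within 100 bp of 2 of the 6 summits, those of Acsf2 and bmm. It was found in 41.2% of the windows of all 1205 peaks of the list, in 31.3% of the 28795 weaker pooled candidates and in 30.4% of windows of the same length at 19607 annotated TSSs. At Acsf2 it starts 50 bp from the summit and at bmm its near end is 75 bp from it. The LPCAT window, under the strongest of the 6 peaks, held neither form of the word on either strand. It was also the richest in G and C, at 46.8%, while the other 5 windows ranged from 29.4% to 34.8% and the median of all peaks was 36.3%. Neither CACGTG nor, outside Acsf2 and Acbp1, GAGAG was in any of the 6 windows, and these words were in 2.66% and 25.2% of the windows of all peaks. A match is a description of these letters only, and all words were read on both strands.

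The authors' signal, whose scale is not stated, ranks peaks within a list. The thresholded list was cut by the irreproducible discovery rate (IDR), which scores how well ranks match between replicates. Its 1205 peaks are the 1205 strongest of 30000 candidates called on both replicates pooled. A listed peak therefore need not be strong in each replicate. The signal of the list ran from 43.9 to 547 with a median of 65.2, and the 6 peaks ran from 66.4 to 281 with a median of 79.3. All 6 were among the 602 strongest peaks of the list. The pooled list reaches down to 13.4, that of replicate 2 to 9.56 and that of replicate 3 to 6.42, and these long lists include background by design.

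LPCAT had the strongest peak. It had a signal of 281 and ranked 15 in the IDR list, on X from 9579173 to 9579394, in an intron 673 bp downstream of the gene's only annotated TSS. Replicate 2 gave it 184 at rank 10 and replicate 3 gave it 103 at rank 38. LPCAT thus stood near the top of both lists. The peak was 222 bp wide, where the other 5 were 384 bp. A weaker pooled candidate of 32.1 at rank 2168 had its summit 64 bp upstream of that TSS, and it had 13.5 at rank 10839 in replicate 2 and 24.5 at rank 1214 in replicate 3. The peaks next to it in rank were one of 282 at rank 14, whose nearest TSS is that of CG13323 at 11935 bp, and one of 280.0 at rank 16, whose nearest TSS is that of norpA at 1374 bp. By the 1 kb limit neither was at a promoter, though the norpA site lay only a little past it.

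Lpin had the next peak, of signal 137 at rank 107, on 2R from 8146047 to 8146430. Replicate 2 gave 67.0 at rank 149 and replicate 3 gave 71.3 at rank 99. The gene has 4 annotated TSSs, and the summit lay 258 bp upstream of an internal one at 8145981, inside an intron of the longer transcripts. The far start at 8156654 had no IDR peak. The summits of the replicates lay 3 and 9 bp from that of the list. The remaining candidates of the gene were weak: the best other pooled one had 23.6 at rank 5116, past the gene's 3' end. Replicate 3 listed 12 candidates at Lpin and replicate 2 listed 2.

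The genes of fatty acid activation and transport had peaks of similar strength. Acsf2 had a peak of 80.7 at rank 375 on 2L from 5342351 to 5342734, with its summit 309 bp upstream of the gene's only TSS. Replicate 2 gave it 29.0 at rank 914 and replicate 3 gave it 51.4 at rank 219. The site was thus relatively stronger in replicate 3. A pooled candidate that overlaps the Acsf2 peak, with its summit 509 bp upstream, had 42.9 at rank 1256, just under the weakest IDR peak of 43.9. Replicate 2 listed a candidate with that summit at rank 1680, and replicate 3 listed no separate one there. Of the candidates at the 9 genes this overlapping one is the strongest left outside the list, and the Acat1 peak of 66.4 is the weakest inside it. Acbp1 had a peak of 77.9 at rank 407 on 2L from 8162508 to 8162891, between genes and 248 bp upstream of its nearest TSS. Replicate 2 gave 40.6 at rank 445 and replicate 3 gave 36.1 at rank 542. The summit also lay 373 bp upstream of the TSS of Piezo, a mechanosensitive channel gene that is read the other way, so the peak sits between divergent genes. A pooled candidate of 37.1 at rank 1630 overlapped the Acbp1 peak, with its summit 168 bp from the Piezo TSS.

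The genes that release and break down fat had the weakest of the 6 peaks. The lipase gene bmm had a peak of 67.6 at rank 564 on 3L from 14786499 to 14786882, 279 bp upstream of its only TSS. Replicate 2 gave 20.9 at rank 2112 and replicate 3 gave 50.5 at rank 234. It was the only one of the 6 peaks outside the 1205 strongest of a replicate. The peak was nearer to the divergent gene Tdrd3, whose TSS lay 100 bp away, than to bmm, and which of both genes it belongs to cannot be told apart from position. Acat1 had a peak of 66.4 at rank 584, with its summit 79 bp upstream of its only TSS. Replicate 2 gave 37.2 at rank 549 and replicate 3 gave 26.0 at rank 1091, with summits 29 and 108 bp from that of the list. No other pooled candidate was found at bmm or Acat1.

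**Figure D1:**
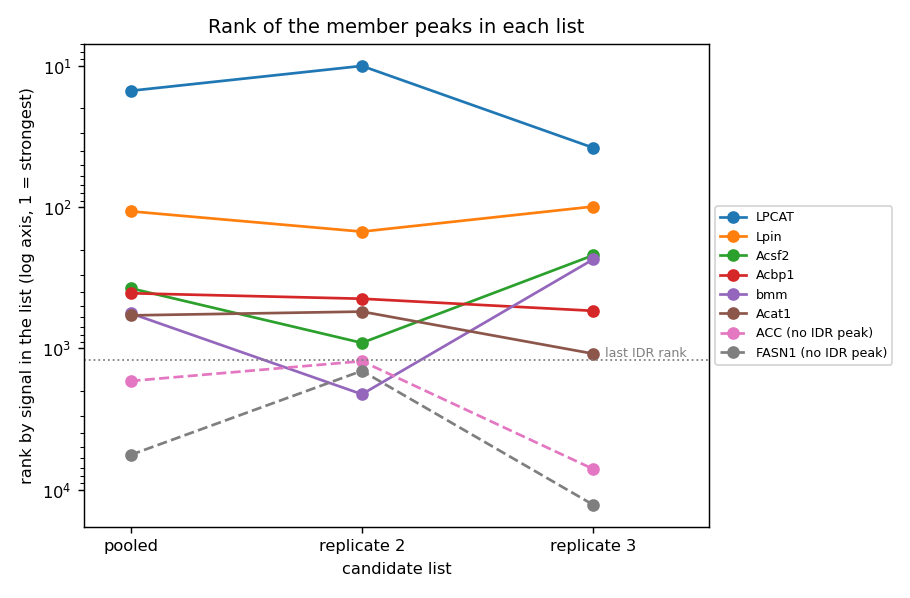
Rank by signal in the pooled list and in both replicate lists (vertical axis, log scale, 1 at the top) of the 6 peaks (solid lines) and of the strongest candidate of ACC and FASN1 (dashed lines; for FASN1 it is not the same site in every list). LPCAT stays between ranks 10 and 38 in the 3 lists, bmm moves from rank 2112 in replicate 2 to 234 in replicate 3, and the dotted line marks rank 1205. Desat1 has no candidate and is not drawn.

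All 6 peaks lay within 1 kb of a TSS of the gene itself. Of all 1205 IDR summits, 69.8% lay within 1 kb of any protein-coding TSS. These are not like shares, since the 6 were already required to lie in or within 1 kb of their gene. Over all genes, 8.78% had an IDR summit that close to a TSS. Upstream of the TSS were 5 of the 6 summits, and LPCAT was the exception. Both LPCAT and Lpin had the summit inside the gene body and in an intron, and the other 4 were intergenic. No peak lay in a coding exon or a UTR. Shares of these sides and places over all IDR peaks are not given here, so the counts only describe the 6 peaks. Distances to the nearest TSS of any gene had a median of 253 bp for the 6 peaks and 203 bp for all IDR peaks. Measured from the gene itself, the farthest summit inside the 1 kb limit was that of Acsf2 at 309 bp, and the next IDR summit outside it lay 2118 bp from the Acbp1 gene.

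**Figure D2:**
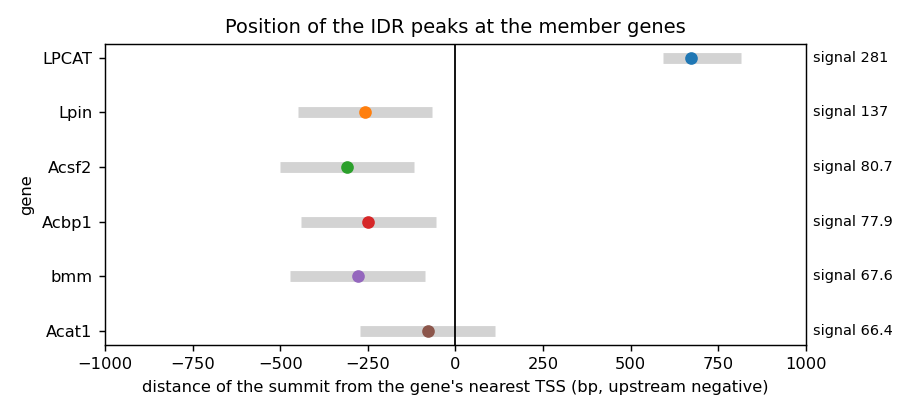
Distance in bp of each summit (points) from the nearest TSS of its own gene, negative upstream, with the width of the peak as a grey bar and the authors' IDR signal at the right. The summits of 5 genes fall 79 to 309 bp upstream, and that of LPCAT falls 673 bp downstream.

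The ranks of the 6 peaks differed between the replicates, most for bmm, at 2112 and 234. Among the 1205 strongest candidates of replicate 3 all 6 were found, and among those of replicate 2 there were 5. Those 5 stood in the top of both, as did 54.4% of all IDR peaks. With the summits also required to lie within 100 bp, 4 did, since the replicate 3 summit at Acat1 lay 108 bp away. The log2 ratio of replicate 3 to replicate 2, relative to the median of -0.20 over the 1168 IDR peaks with both values, was 1.47 for bmm and 1.02 for Acsf2, while the SD over those peaks was 0.75. It was 0.29 for Lpin, -0.32 for Acat1 and -0.64 for LPCAT, all within that SD, and Acbp1 was within 0.1 of the median. With 1 library per replicate no such ratio has a test. The pooled list and the IDR list hold the same reads as the replicates, so ranks in them are not further evidence.

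The 3 genes without an IDR peak differed in what lay below the threshold. ACC, whose product commits acetyl-CoA to fatty acid synthesis, had 2 pooled candidates. The better one, of 36.4 at rank 1702, had its summit 793 bp upstream of an internal TSS, in an intron on 2R from 7987838 to 7988221, and nearer to the TSS of Nup44A at 432 bp. Replicate 2 gave that site 25.4 at rank 1232 and replicate 3 gave it 11.4 at rank 7155. It was thus close to the top in replicate 2 and far from it in replicate 3. The nearest IDR summit lay 57444 bp from the gene.

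FASN1, the main fatty acid synthase, had 4 pooled candidates, the best of 22.8 at rank 5682 in its 5' UTR 66 bp from a TSS. Its best candidate in replicate 2, of 23.8 at rank 1443, lay elsewhere, in an intron 871 bp downstream of a TSS. Replicate 3 had 9.30 at rank 12820 at best. Desat1, the fatty acid desaturase, had 0 candidates in the gene body or within 1 kb in the pooled list and in both replicate lists. Over all protein-coding genes, 37.0% had no pooled candidate there. The nearest pooled candidate to Desat1 was itself an IDR summit, 36442 bp away. The nearest candidates in replicates 2 and 3 were 8235 and 1578 bp away. Depth is unknown, so a weaker site at these genes is not detectable from the lists rather than absent.

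The wider pathway was described with lists of 145 genes in 10 groups, of which the 9 genes are part. An IDR summit in the body or within 1 kb was found at 28 of them (19.3%), and at 22 of the 136 that are not among the 9 (16.2%), beside the 11.6% of all genes. Within 1 kb of a TSS the count was 23 of 145, or 15.9%, beside 8.78%. The median length of the listed genes was 3.4 kb against 2.17 kb over all genes, but lengths differed between lists, and their part in the shares was not tested. The lists were written with earlier results of these data known, so the shares are descriptions.

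No gene had an IDR summit in the lists of fatty acid synthesis (0 of 7) and of desaturation and elongation (0 of 28). The share over all genes was 11.6%, and these small counts were not tested against it. The genes of the first list were long, with a median of 9.92 kb, and those of the second were short, with a median of 1.29 kb. Their best pooled candidates had signals of 38.5 at AcCoAS, which makes acetyl-CoA from acetate, and 39.9 at Sc2, the enoyl-CoA reductase of elongation, at ranks 1508 and 1430. The citrate lyase gene ATPCL had 0 pooled candidates, the only 1 of its list of 7. In the second list 10 of 28 genes had none, beside 37.0% of all genes. Fatty acid activation had 3 of 15 genes with a summit (20.0%). Beside Acsf2 and Acbp1 this was pudgy (pdgy), an acyl-CoA synthetase gene, with 127 at rank 125, 175 bp upstream of a TSS.

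Triacylglycerol synthesis had 5 of 12 genes (41.7%), counted through 4 distinct peaks, beside the 11.6% of all genes. Each enzyme class from glycerol phosphate to storage fat had at least 1 of them. Other genes of these classes had no IDR summit, and 3 of the 12 genes had no pooled candidate. The acylation of glycerol phosphate was represented by minotaur (mino), with a peak of 59.7 at rank 719, 105 bp upstream of its TSS. The next acylation was represented by Agpat4, with a peak of 193 at rank 44, 144 bp upstream of its TSS. The neighbour Agpat3 was counted through the same peak, 1218 bp from its own TSS. Lpin followed with 137, and midway (mdy), the acyltransferase that completes triacylglycerol, had 50.5 at rank 952, 82 bp upstream of a TSS. In replicate 2 the mdy peak ranked 2389 and in replicate 3 it ranked 968, so it was outside the top of one replicate, as bmm was. The mino peak ranked 387 in replicate 2 and 1612 in replicate 3, so it too was outside the top of 1 replicate.

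Phospholipid synthesis and remodelling had 5 of 17 genes (29.4%), beside the 11.6% of all genes. Next to LPCAT these were Cds, the CDP-diacylglycerol synthase, with 95.0 at rank 240 and 57 bp upstream of a TSS, and oysgedart (oys), a lysophospholipid acyltransferase, with peaks of 63.8 and 54.2. The summit of 63.8 lay in an oys intron 2163 bp from its TSS, nearer to that of COX7C at 1897 bp. The summit of 54.2 lay 41 bp upstream of the oys TSS, in an intron of COX7C. PGS1, of phosphatidylglycerol synthesis, had peaks of 51.0 and 50.7, and the first of these lay 194 bp from the TSS of Mekk1. CG33116 had a peak of 52.8, 43 bp upstream of its TSS. Among lipid droplet and lipolysis genes 4 of 14 had a summit (28.6%), and 14.3% had one at a TSS. The phospholipase gene PAPLA1 had 103 at rank 206 and 49.7 at rank 977, both upstream of its own TSSs. The perilipin genes Lsd-2 and Lsd-1 had 64.7 and 50.4, but neither at a TSS of its own: the Lsd-2 summit lay in an intron 1244 bp from it, and that of Lsd-1 lay 96 bp from the TSS of CG10375. Of the genes of beta-oxidation and ketone bodies 2 of 19 had one, Acat1 and scully (scu). This share of 10.5% was near the 11.6% of all genes. At a TSS it was 1 of 19, or 5.26%, beside 8.78%, and these small counts were not tested. The scu summit of 55.9 lay 63 bp from the TSS of RhoGAP16F.

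**Figure D3:**
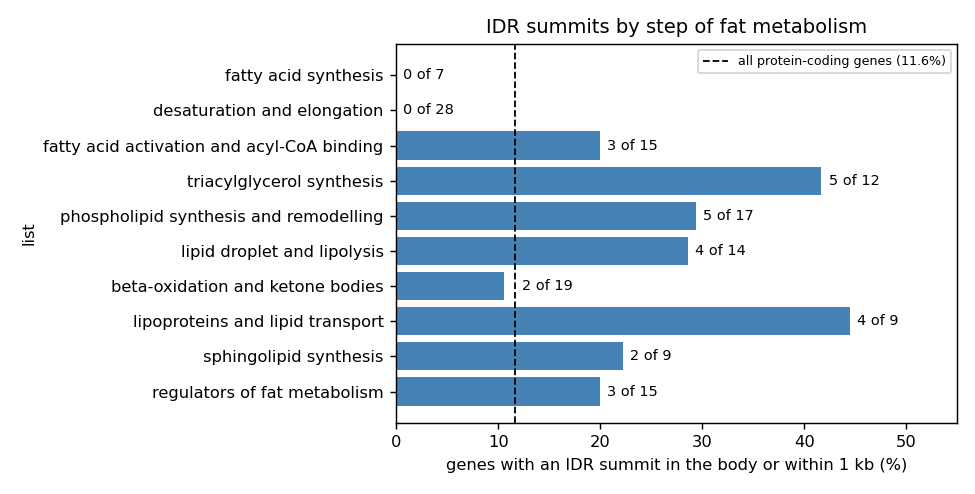
Percent of the genes of each list with an IDR summit in the gene body or within 1 kb (bars, with counts), and the same over all protein-coding genes (dashed line, 11.6%). Fatty acid synthesis and desaturation and elongation stand at 0, and triacylglycerol synthesis at 5 of 12.

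**Figure D4:**
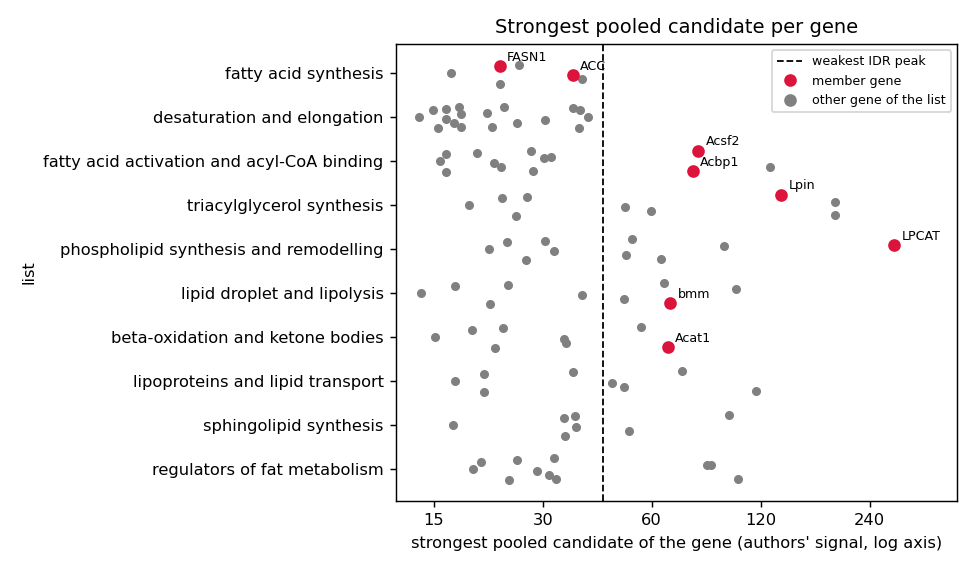
Signal of the strongest pooled candidate of each listed gene that has one (points, log axis), with the 8 of the 9 genes that have a candidate in red and the weakest IDR peak, 43.9, as a dashed line. ACC and FASN1 lie left of the line with the rest of their list, and LPCAT at 281 lies farthest right.

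Across the lists the 31 pairs of a gene and a peak came from 30 distinct peaks. The summit lay within 1 kb of the gene's own TSS in 24 pairs, and the gene's own TSS was the nearest of any gene in 20. The Agpat3 and Agpat4 pairs share 1 peak, so the next counts are over the 30 peaks. In the top of both replicates stood 20 of them, beside the 54.4% of all IDR peaks. The extended GATA word was within 100 bp of the summit in 15 of the 30, beside 41.2%. The 30 peaks are themselves part of the IDR list, and these shares were not tested.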

How the data were processed

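ChIP-seq of GATAd-GFP was measured in 2 samples of whole larvae, biological replicates 2 and 3. Per the deposited file records, the authors called 30000 candidates on each replicate and on both pooled, with 1 further input file that also went into their control-normalized tracks, and derived the IDR list from these lists. The signal is the authors' deposited value of column 7, never negative and of unstated scale, and it was used only to rank and describe peaks within a list. Which aligner, peak caller and IDR cutoff were used is not given in the sources used here. Read depth is unknown, so no interval is given. Only the dm6 lists were used. No peak ran past the end of an arm of the Release 6 sequence.

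A summit (start plus column 10) was given to each protein-coding gene (Ensembl release 115) whose body held it or lay within 1 kb. Python 3.11.15 and pandas 2.3.3 were used, and the assignment was tested on simulated peaks. A replicate's value is the overlapping candidate with the nearest summit. The top of a replicate is its 1205 strongest peaks, with an overlap of at least 1 bp.

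The 9 genes, the lists and the choices were made with earlier results of these data known. Of 149 list symbols, 4 matched by synonym, 3 repeated another entry and 1 did not match. Named are the 9 genes, other genes nearer to their summits, listed genes with an IDR summit and the rank neighbours of the strongest peak. AcCoAS, Sc2 and ATPCL were chosen after their values were seen. Other distances, windows, words, overlaps, a stricter list and each replicate alone were tried. The sequence under the Acat1 peak is not reported here.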

Additional observations from a re-analysis of the deposited data

How the results depend on the processing

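Of the 9 genes, 4 to 6 had a summit under every alternative run: other distances, the 602 strongest IDR peaks, TSSs only, the gene of the nearest TSS only (bmm falls to Tdrd3), with 4 at 250 bp, where Acsf2 and bmm drop out, and each replicate alone. Without replicate 2 the count was 6 and without replicate 3 it was 5, and bmm was the gene lost. ACC, FASN1 and Desat1 had a summit under none of these. The summits at the 9 genes numbered 4 at 250 bp, 9 at 5 kb and 5 to 6 with 1 replicate left out. Of the 6 summits, 2 were within 250 bp of the gene's own TSS. The extended GATA word was at 0 of 6 summits within 50 bp and at 4 within 200 bp, beside 24.9% and 60.7% of all IDR peaks. The bare word GATA was at 5 of 6 within 100 bp, beside 79.7% of all IDR peaks and 73.3% of TSS windows. Wider windows hold more letters. In the 10 lists 28 genes had a summit, 46 with a distance of 5 kb and 17 with the 602 strongest peaks, where more or fewer summits count by construction. With 1 replicate left out that count ranged from 28 to 32. Among alternatives chosen after seeing the data, the nearest TSS only gave 22 genes and TSSs within 1 kb gave 23. The dm3 lists were planned as an alternative and were not run, since no dm3 annotation was at hand. Read depth is unknown and limits what the lists can show at genes without a candidate.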

Other observations

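Genes of lipid transport, sphingolipids and regulation in the same lists also had IDR summits, and none of the 9 genes is among them. Of 9 genes of lipoproteins and lipid transport 4 had one (44.4%), beside the 11.6% of all genes. At a TSS the share was 33.3% beside 8.78%. The genes of this list were long, with a median of 7.4 kb beside 2.17 kb over all genes, and the part of length was not tested. LpR2 and LpR1, which encode lipophorin receptors, had peaks of 117 at rank 151, in an intron 2295 bp from a TSS, and of 72.8 at rank 499, 48 bp upstream of a TSS. The LpR2 peak ranked 62 in replicate 2 and 1023 in replicate 3, a log2 ratio of -1.61 relative to the median. Apoltp, the lipid transfer particle gene, had 50.3, and Npc2a, a sterol transport gene, had 46.5 at a site nearer to Got2 with no overlapping candidate in replicate 2.

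Of 9 sphingolipid genes 2 had a summit (22.2%, beside 11.6% of all genes). Sk2, a sphingosine kinase gene, had 97.9 at a site nearer to scramb2. GlcT, the ceramide glucosyltransferase gene, had 52.0 at a site nearer to CG2921. Of 15 regulators 3 had one (20.0%), each at a summit with a TSS of another gene within 1 kb. The nuclear receptor gene Hr96 had 104 at rank 196, 134 bp upstream of its TSS and 84 bp from that of EMC6. The gene bigmax, whose product pairs with Mondo, had 87.5, 90 bp upstream of its TSS. The nuclear receptor gene ERR had 85.6, 204 bp upstream of its TSS and 18 bp from that of the autophagy gene Atg18a. The IDR summit nearest to Acbp1 outside its own peak, 2118 bp from the gene, was the PAPLA1 peak of 103.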
